A study of Mus musculus with 12 samples.

Results

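The genes described here encode signals that osteoclasts send to bone-forming cells, together with the calcitonin receptor Calcr, a marker of the mature osteoclast. They are Sema4d, Efnb2, Sphk1, Spns2, Cthrc1, Pdgfb, Slit3 and Calcr. They were chosen by name, with earlier results of these data known, and all 8 were found among the 47643 genes of the count table. RNA was sequenced from osteoclast cultures. These were grown with the growth factors M-CSF and RANKL, which every group received, out of BMMs, the bone marrow-derived monocytes of wildtype BALB/c mice. Each of 3 groups had 4 libraries. OCsCtr were left unstimulated. OCsEo were cultured from the start for 48 h with eosinophils sorted out of blood and marrow of IL-5tg/4get mice, at 2 eosinophils to 1 BMM, and OCsEoS for 48 h with eosinophil supernatant at a 1:2 dilution. The stimulus was then washed off and the cultures were harvested on day 3 of differentiation. The eosinophil donors overproduce IL-5, so their eosinophils are not those of an unmanipulated mouse. The osteoclasts were not sorted before lysis, so a library holds osteoclasts and their precursors. In such bulk RNA, fewer cells of a type and less RNA per cell cannot be told apart. The study calls the 4 libraries of a group biological replicates. Whether they came from separate mice or from separate cultures is not given in the sources used here.

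Bone resorption and bone formation are coupled: osteoclasts resorb a patch of bone, and osteoblasts then refill it. Osteoclasts take part through factors freed from the matrix, through secreted proteins and lipids, and through membrane proteins that touch the osteoblast lineage. Sema4d, a semaphorin acting on plexin-B1, restrains osteoblasts. Efnb2, the membrane ligand ephrin-B2, signals both ways with EphB4. Sphk1 is, with Sphk2, a kinase that makes sphingosine-1-phosphate (S1P), and Spns2 is a transporter that carries S1P out of the cell. Cthrc1 is a secreted protein that favours bone formation. Pdgfb encodes a chain of platelet-derived growth factor BB, which recruits mesenchymal and vascular cells. Slit3 is a secreted guidance protein that acts through Robo receptors. Calcr, which lets calcitonin stop resorption, appears as osteoclasts mature.

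Of the 8 genes, 7 had enough counts to be tested, and all 7 had a negative fitted change against OCsCtr in both stimulated groups. In OCsEo, 4 fell: Calcr, Cthrc1, Efnb2 and Spns2. In OCsEoS, the same 4 fell, and so did Sema4d. Pdgfb was lower in every stimulated library than in every control library, by less than the fold threshold. Sphk1 had the smallest change against OCsCtr of the 7 in OCsEoS, and Slit3 was not detected above the counting limit in any library. The fall meant here is a Benjamini-Hochberg adjusted p under 0.05 in the quasi-likelihood test of edgeR, over all 13681 genes tested, with a log2 fold change under -0.5. Of all genes tested, 2.61% fell in this sense in OCsEo and 4.11% in OCsEoS, and 3.27% and 3.63% rose by the same rule with the sign turned. Both comparisons use the same 4 control libraries, so they are not independent of each other.

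The stretches of genome before the annotated starts of the genes that fell in both stimulated groups are printed here, to show what lies upstream of the transcripts that were counted. RefSeq promoter entries on GRCm38.p6 were matched by symbol for 6 of the 8 genes, with 13 start sites between them, and not for Cthrc1 and Pdgfb. Each line gives the 250 bases before a start, read 5′ to 3′ on the minus strand, on which these genes lie. Capitals mark a match on either strand to the NFAT core GGAAA, which NFATc1 of the osteoclast programme binds, or to TCANGTG. With any base at N, TCANGTG is a looser pattern than the M-box of MITF and its relatives.
Calcr, outer start, chr6:3764714-3764963: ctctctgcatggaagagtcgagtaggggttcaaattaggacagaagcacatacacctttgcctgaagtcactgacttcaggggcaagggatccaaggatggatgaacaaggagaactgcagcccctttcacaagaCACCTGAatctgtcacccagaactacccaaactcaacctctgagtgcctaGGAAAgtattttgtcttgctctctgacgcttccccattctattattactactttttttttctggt
Calcr, inner start, chr6:3763624-3763873: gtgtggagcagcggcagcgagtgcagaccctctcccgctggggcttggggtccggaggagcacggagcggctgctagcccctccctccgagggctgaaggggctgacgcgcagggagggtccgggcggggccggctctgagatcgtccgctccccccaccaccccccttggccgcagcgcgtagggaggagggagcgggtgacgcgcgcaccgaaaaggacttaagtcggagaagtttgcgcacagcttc
Efnb2, chr8:8661243-8661492: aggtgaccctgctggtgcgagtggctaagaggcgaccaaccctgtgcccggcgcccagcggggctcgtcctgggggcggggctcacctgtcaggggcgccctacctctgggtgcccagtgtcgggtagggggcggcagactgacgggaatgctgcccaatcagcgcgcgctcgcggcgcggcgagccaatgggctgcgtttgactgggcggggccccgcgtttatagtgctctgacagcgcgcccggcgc
Spns2, start inside the gene, chr11:72475028-72475277: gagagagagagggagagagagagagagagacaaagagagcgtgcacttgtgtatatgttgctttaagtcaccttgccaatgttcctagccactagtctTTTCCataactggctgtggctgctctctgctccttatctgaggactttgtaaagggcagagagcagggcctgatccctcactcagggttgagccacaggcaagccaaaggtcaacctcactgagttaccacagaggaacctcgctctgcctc
The outer Calcr window held 1 NFAT core and 1 match to TCANGTG, which reads TCAGGTG on the other strand, and was 46.0% G and C. The inner Calcr window and the Efnb2 window held neither motif and were 70.8% and 72.0% G and C. The Spns2 window held 1 NFAT core, and its start lies 14877 bases inside the annotated gene. The NFAT core is common, being in 55.6% of 32851 mouse windows of the same length. The pattern TCANGTG was in 12.2% of them, and the AP-1 site TGANTCA in 6.7%. None of the 4 printed windows held an AP-1 site, and the marked matches do not overlap. Of the windows not printed, the 3 of Sema4d and the 5 of Sphk1 each held the NFAT core, 1 of Sema4d and 2 overlapping ones of Sphk1 also held an AP-1 site, and the 1 of Slit3 held no motif. A match is a description of these letters and no evidence of binding. Counts per gene do not tell the starts of a gene apart.

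Depth was even. Library totals ran from 27837530 to 40327869 counts, and a gene at 3 counts, taken as the floor of detection, would stand at 0.0769 to 0.107 CPM (counts scaled to library size). The median log2 fold change of all tested genes was within 0.01 of 0 in each comparison. All 12 osteoclast markers examined were expressed in every group. The sum of their CPM was 30266 to 36634 in OCsCtr, 19431 to 24804 in OCsEo and 16313 to 23793 in OCsEoS, so the markers that define the labelled cell type were also lower after stimulation. Of these markers, 9 of 12 fell in OCsEo and 9 of 12 in OCsEoS, with medians of -0.54 and -0.64 log2. Their part in the changes of the coupling genes was not tested.

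Calcr is given first, since it marks maturity. Its gene lies on chromosome 6 from 3685680 to 3764714 (minus strand, coordinates of the count table, build GRCm38). In OCsCtr, Calcr stood at 129, 153, 155 and 167 CPM. In OCsEo it stood at 69.6, 102, 82.3 and 90.2 CPM, and in OCsEoS at 73.3, 91.0, 68.0 and 53.2 CPM. Every stimulated library was lower than every control library, and the stimulated groups overlapped each other. The log2 fold change was -0.81 (SE 0.13, adjusted p = 2.05e-04) in OCsEo and -1.08 (SE 0.13, adjusted p = 1.13e-05) in OCsEoS. Only 3.50% of all tested genes had a lower fold change in OCsEo and 1.99% in OCsEoS. OCsEoS against OCsEo gave -0.27 (95% interval -0.56 to 0.02, adjusted p = 0.448), which did not pass the test.

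**Figure D1:**
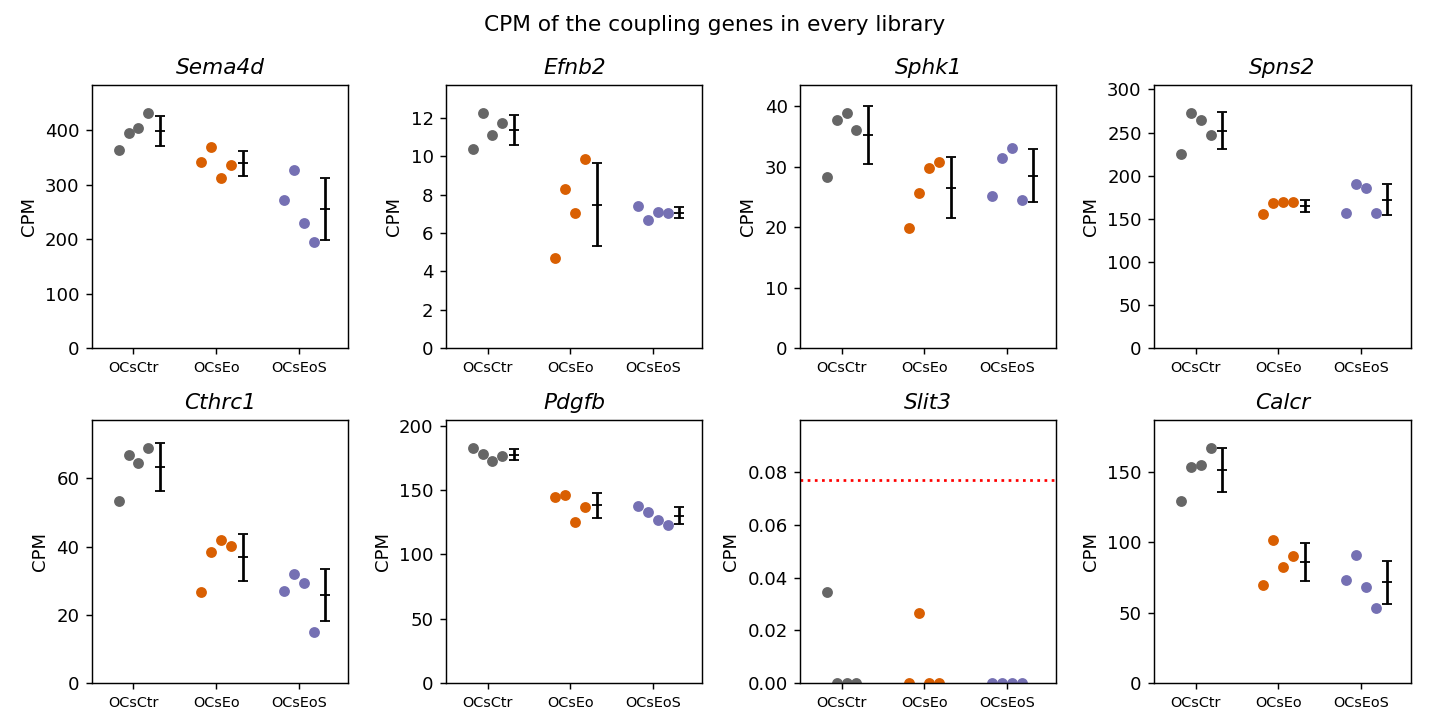
CPM (y axis, linear from 0) of each of the 8 genes in the 12 libraries (points, in replicate order within each group), with mean and SD over 4 libraries beside them except for Slit3, where the dotted line is the lowest floor of 3 counts, 0.0769 CPM. Calcr, Cthrc1, Spns2, Efnb2 and Pdgfb were lower in every OCsEo and OCsEoS library than in every OCsCtr library.

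Cthrc1 had the largest fall of the 8 genes in OCsEoS. It lies on chromosome 15 from 39076932 to 39087121, on the plus strand. It stood at 53.3, 66.9, 64.4 and 68.9 CPM in OCsCtr. The values in OCsEo were 26.7, 38.4, 42.0 and 40.2 CPM, and in OCsEoS 27.1, 31.8, 29.3 and 14.8 CPM. Control libraries were again all above stimulated ones, and OCsEoS 4 was the lowest of the 12. This was a log2 fold change of -0.78 (SE 0.17, adjusted p = 0.00325) in OCsEo and -1.30 (SE 0.17, adjusted p = 3.31e-05) in OCsEoS. Means fell to 58.1% and 40.6% of the control mean. OCsEoS lay 0.52 below OCsEo on the log2 scale (-0.52, 95% interval -0.91 to -0.12, adjusted p = 0.233), and this did not pass over all genes. It passed when no gene was filtered out for low counts (adjusted p = 0.00430).

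Cthrc1 is also made by stromal cells, so markers of osteoblasts and stroma were examined in the same libraries. Of 12, 6 had enough counts to be tested. Their summed level was 15.4 to 64.9 CPM in OCsCtr, 13.5 to 44.2 CPM in OCsEo and 13.2 to 41.4 CPM in OCsEoS, so the groups overlapped. Bglap2, an osteocalcin gene, had 0 counts in every library. Bglap, the other osteocalcin gene, averaged 0.00866 CPM or less in each group, under the floor. Most of the summed level was Col1a1 and Col1a2, collagen genes named after their values were seen. In OCsCtr they averaged 12.3 and 12.4 CPM, with single libraries up to 27.9 and 26.4 CPM. Col1a1 was at -0.49 log2 in OCsEo and -0.20 in OCsEoS, and Col1a2 at -0.79 and -0.33, none of them called. Runx2, the osteoblast lineage regulator, was the only one of the 6 to be called, at -1.02 in OCsEoS (adjusted p = 0.0150), from 3.12 to 1.54 CPM. That call was lost without OCsCtr 2 (-0.89). None of the 6 was called in OCsEo, but all 6 were negative there, with a median of -0.60, and 5 of 6 in OCsEoS, with a median of -0.26. Their part in the fall of Cthrc1 was not tested.

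Efnb2 was far less abundant. It lies on chromosome 8 from 8617434 to 8661242, on the minus strand. It stood at 10.4, 12.3, 11.1 and 11.7 CPM in OCsCtr, at 4.72, 8.29, 7.02 and 9.84 CPM in OCsEo and at 7.40, 6.69, 7.12 and 7.06 CPM in OCsEoS. The OCsEo libraries were widely spread (SD 2.16 CPM) and the OCsEoS libraries close together (SD 0.30 CPM), with both groups under the controls. On the log2 scale this was -0.61 (SE 0.17, adjusted p = 0.0194) in OCsEo and -0.69 (SE 0.18, adjusted p = 0.00717) in OCsEoS. The first of these rested on single libraries: it lost its call without OCsCtr 2 (-0.57, adjusted p = 0.0593), without OCsEo 1 (-0.44, adjusted p = 0.0553) and without OCsEo 3 (-0.58, adjusted p = 0.0504). The stimulated groups differed by -0.08 (95% interval -0.48 to 0.32, adjusted p = 0.911).

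Markers of endothelium, where ephrin-B2 is abundant, were also examined, and their summed level overlapped between groups. Of 8 such markers, 4 were tested and none was called in any comparison. In OCsEo 1 of the 4 was negative, with a median of 0.05, and in OCsEoS 3 of the 4, with a median of -0.29. The summed level of the 8 was 20.2 to 29.9 CPM in OCsCtr, 21.1 to 28.9 CPM in OCsEo and 18.3 to 24.3 CPM in OCsEoS. Vwf, von Willebrand factor, named after its values were seen, was lower in every OCsEoS library than in the other groups: it ran from 11.2 to 14.9 CPM in OCsCtr, 12.4 to 14.1 CPM in OCsEo and 7.09 to 10.7 CPM in OCsEoS (-0.39 against OCsCtr, adjusted p = 0.0520). The part of such cells in the fall of Efnb2 was not tested.

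Spns2 and Sphk1 both act on S1P, the one as an exporter and the other as a kinase that makes it. Both lie on chromosome 11, Spns2 from 72451638 to 72489904 on the minus strand and Sphk1 from 116530925 to 116536674 on the plus strand. Spns2 stood at 225, 272, 265 and 247 CPM in OCsCtr, at 155, 168, 169 and 169 CPM in OCsEo, and at 157, 190.0, 186 and 156 CPM in OCsEoS. All 8 stimulated libraries were below the lowest control, and 3 of the OCsEo libraries were nearly equal. The log2 fold change was -0.61 (SE 0.07, adjusted p = 1.66e-05) in OCsEo and -0.55 (SE 0.07, adjusted p = 3.72e-05) in OCsEoS, and the stimulated groups differed by 0.06 (95% interval -0.11 to 0.23, adjusted p = 0.809). The OCsEoS value sits close to the fold threshold, and without OCsEoS 1 or OCsEoS 4 it was just above it (-0.4994 and -0.4997). The 131 exon bases that Spns2 shares with Mybbp1a on the other strand are 3.21% of its exons, and reads there cannot be told apart, since the strand setting of the counting is not given in the sources used here. Mybbp1a averaged 77.2, 86.8 and 91.9 CPM in OCsCtr, OCsEo and OCsEoS. Its part in the counts of Spns2 was not tested.

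Sphk1 stood at 28.3, 37.7, 38.9 and 36.1 CPM in OCsCtr, at 19.8, 25.6, 29.9 and 30.8 CPM in OCsEo, and at 25.1, 31.4, 33.1 and 24.6 CPM in OCsEoS. OCsCtr 1 lay among the stimulated libraries, so neither stimulated group was apart from the controls. The log2 fold change was -0.41 (SE 0.14, adjusted p = 0.0437) in OCsEo, under the fold threshold, and -0.31 (SE 0.14, 95% interval -0.62 to 0.01, adjusted p = 0.1203) in OCsEoS. Without OCsCtr 1, the OCsEo value reached -0.50 and was called (adjusted p = 0.0195). The antisense gene Gm29292, which covers 4.02% of the exon bases of Sphk1, had 0 counts in all libraries.

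Of 17 other genes of S1P turnover and export, 16 were tested. In OCsEo 1 fell and none rose, and in OCsEoS 2 rose and none fell, with medians of -0.08 and -0.10 log2. Smpd1, the acid sphingomyelinase that feeds ceramide into the pathway, was at -0.52 in OCsEo (adjusted p = 3.27e-05) and lost its call without OCsCtr 3 or OCsEo 1 (both -0.50). In OCsEoS it was at -0.49, under the fold threshold. Sgpp1, an S1P phosphatase, was at 0.53 in OCsEoS (adjusted p = 3.02e-05), and its call was lost without OCsCtr 2 (0.50). Sphk2, the other S1P-making kinase, named after its values were seen, stood at 106, 95.9 and 87.8 CPM in OCsCtr, OCsEo and OCsEoS. Its log2 fold changes were -0.15 (adjusted p = 0.185) and -0.27 (adjusted p = 0.00977), both under the fold threshold, with every stimulated library below every control. Plpp2, a lipid phosphate phosphatase, was at 0.66 in OCsEoS (adjusted p = 1.23e-05).

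Sema4d had the lowest p of the 7 genes between the stimulated groups. It lies on chromosome 13 from 51701246 to 51793747, on the minus strand. It stood at 364, 396, 404 and 432 CPM in OCsCtr, at 341, 369, 313 and 336 CPM in OCsEo, and at 271, 327, 230.0 and 196 CPM in OCsEoS. OCsEo overlapped the controls by 1 library, OCsEo 2, whereas every OCsEoS library was below them. In the fit this was -0.23 (SE 0.11, 95% interval -0.47 to 0.01, adjusted p = 0.149) in OCsEo and -0.64 (SE 0.11, adjusted p = 2.37e-04) in OCsEoS. OCsEoS against OCsEo gave -0.41 (95% interval -0.65 to -0.17, adjusted p = 0.0979), which missed the threshold over all genes. Without OCsEoS 2, the highest library of its group, it was -0.55 (adjusted p = 0.00733) and was called.

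Pdgfb lies on chromosome 15 from 79995900 to 80014808, on the minus strand. It stood at 183, 178, 173 and 176 CPM in OCsCtr, at 144, 146, 125 and 137 CPM in OCsEo, and at 137, 133, 127 and 123 CPM in OCsEoS. The controls were close together (SD 4.13 CPM) and all above the stimulated libraries. Its log2 fold change was -0.36 (SE 0.06, adjusted p = 4.60e-04) in OCsEo and -0.45 (SE 0.06, adjusted p = 4.64e-05) in OCsEoS, both past the adjusted p but under the fold threshold. Megakaryocytes and platelets carry this growth factor as well. All 8 of their markers were tested, with a summed level of 106 to 163 CPM in OCsCtr, 98.9 to 171 CPM in OCsEo and 137 to 179 CPM in OCsEoS. Pf4, a platelet chemokine, rose in OCsEoS (0.89, adjusted p = 5.11e-04), and no other marker was called. The other 7 markers were negative there, and the median of the 8 was -0.41 (-0.22 in OCsEo), beside -0.45 for Pdgfb. By adjusted p alone Ppbp (-0.42, adjusted p = 0.0413) and Itga2b (-0.46, adjusted p = 0.0371), both named after their values were seen, were lower in OCsEoS. Their part in the change of Pdgfb was not tested.

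Slit3 could not be assessed. It lies on chromosome 11 from 35121224 to 35708507, on the plus strand. A single count was seen in OCsCtr 1 and in OCsEo 2, and 0 counts in the other 10 libraries, which allows a level of up to the floor of each library. An exact permutation test over the libraries gave p = 1 in each comparison (two-sided). Its smallest p of 0.0286 holds only for values without ties and could not be reached here. Against OCsEoS a single library had a count, so every split gave the same difference and the outcome was fixed in advance. No conclusion is drawn from this test. A floor of this kind covers counting error only.

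**Figure D2:**
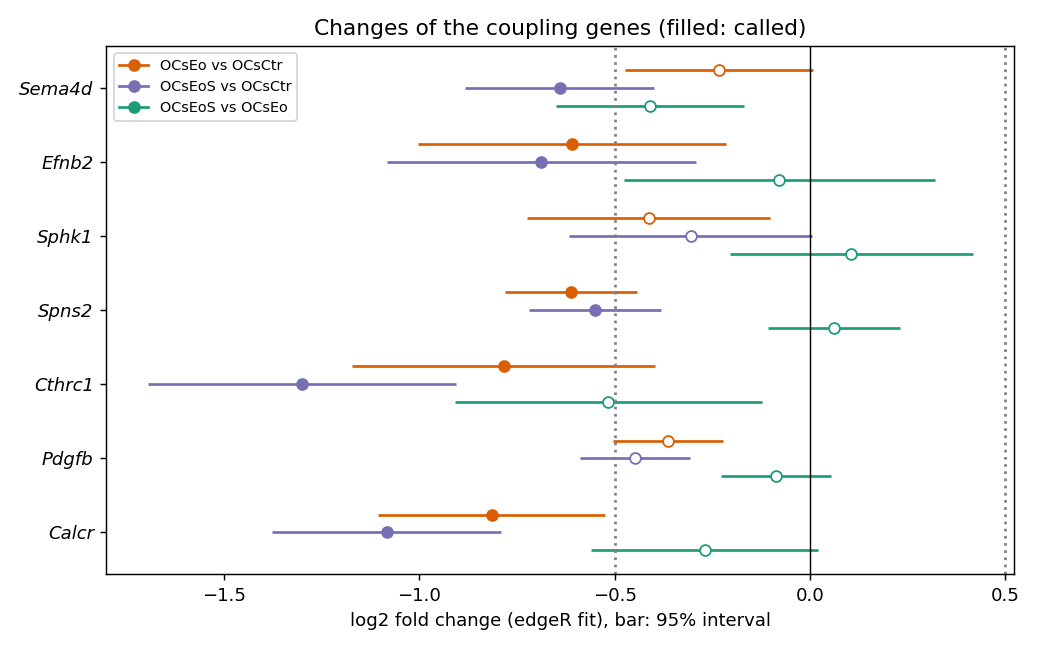
Log2 fold change (x axis) of the 7 tested genes in OCsEo against OCsCtr, OCsEoS against OCsCtr and OCsEoS against OCsEo, with bars for the 95% interval from the SE and 9 residual degrees of freedom, filled points for called changes and dotted lines at the fold threshold of 0.5. All values against OCsCtr lie left of 0, from -0.23 to -0.81 in OCsEo and from -0.31 to -1.30 in OCsEoS, and no point is filled for OCsEoS against OCsEo.

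The 2 counts of called genes, 4 and 5 of the 7 tested, both include Calcr and stand beside 2.61% and 4.11% of all genes. The 8 genes were chosen with earlier results of these data known, so these shares describe them and test no excess. By adjusted p alone 6 of 7 were lower in each comparison, where 8.35% and 11.2% of all genes were. The groups did not overlap for 5 of 7 genes in OCsEo and for 6 of 7 in OCsEoS, where this held for 10.9% and 13.1% of all genes. The median log2 fold change of the 7 was -0.61 and -0.64. Between the stimulated groups none of the 7 genes was called by edgeR or by DESeq2, and the groups overlapped for every gene. For 3 of the 7 (Sema4d, Cthrc1 and Calcr) the unadjusted p in edgeR was under 0.05. Among all genes, 0.307% were lower and 0.0731% higher in OCsEoS than in OCsEo, and 3.06% were apart and lower. The median of the 7 there was -0.09.

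Levels were compared between genes only as CPM per kilobase of exon, using the exon length in the count table. In OCsCtr, Sema4d (61.9 ± 4.31, SD, n = 4), Spns2 (61.8 ± 5.21) and Pdgfb (60.8 ± 1.42) stood highest, and these 3 overlapped. Cthrc1 (42.8 ± 4.72) and Calcr (38.7 ± 4.03) followed and overlapped each other. Sphk1 (7.38 ± 1.00) and Efnb2 (1.66 ± 0.12) were lower, each apart from its neighbours in the order, and Slit3 was under the floor. In OCsEo, Spns2 at 40.5 stood below Sema4d (52.7) and Pdgfb (47.3), whose libraries overlapped each other and not those of Spns2. In OCsEoS, Pdgfb (44.6), Spns2 (42.2) and Sema4d (39.7) overlapped as neighbours in the order. Calcr (18.2) and Cthrc1 (17.4) overlapped as well. The order among the top genes depends on the length: with the longer exon length of the GENCODE vM21 annotation, the OCsCtr means were 52.0 for Sema4d, 61.8 for Spns2 and 42.6 for Pdgfb. On that length they were 44.2, 40.5 and 33.2 in OCsEo and 33.3, 42.2 and 31.2 in OCsEoS. Spns2 then stood above Pdgfb in every group, and below Sema4d in OCsEo only.

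**Figure D3:**
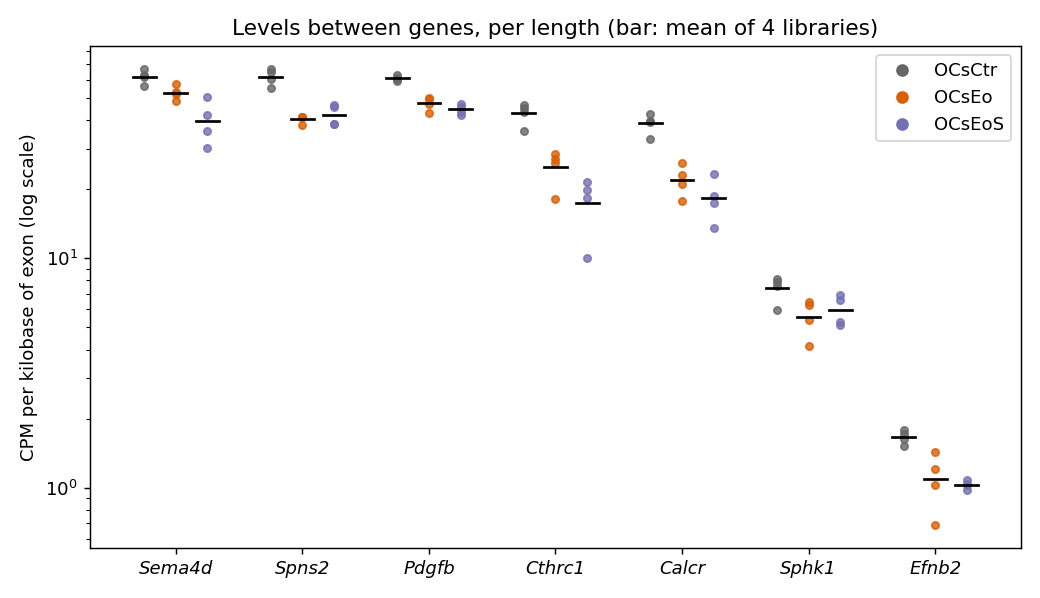
CPM per kilobase of exon (y axis, log scale) of the 7 detected genes in every library (points) with the mean of 4 libraries (bars), ordered by the OCsCtr mean. Sema4d, Spns2 and Pdgfb stand near 61 in OCsCtr, and Efnb2 stands lowest at 1.66.

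Single libraries moved together across genes. OCsCtr 1 was the lowest control for 6 of the 7 tested genes, all but Pdgfb. OCsEo 1 was the lowest of its group for 5, and OCsEoS 4 for 6. The same 3 libraries had the lowest mean log2 CPM of the 12 osteoclast markers in their groups, at 9.95, 9.36 and 9.24. Over the 12 libraries, log2 CPM of Calcr correlated with that of Cthrc1 at r = 0.955, and at 0.848 once group means were removed. Sphk1 and Spns2 correlated at 0.823 and within groups at 0.851. Sphk1 and Pdgfb correlated at 0.438, and within groups at -0.479. These values describe 12 libraries that share groups and scaling.

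The genes most like each one over the 12 libraries, by Pearson r of log2 CPM among all tested genes, were the following. For Calcr they included Mmp9 (r = 0.993) and Sdha (0.987). For Cthrc1 they were Vdac1 (0.986), Capzb (0.982) and Mdh1 (0.982). Mmp9, a matrix metalloproteinase, is itself among the 12 osteoclast markers. For Spns2 they were Gm20056 (0.991), Mdfic (0.990) and Slc37a2 (0.982). For Sema4d they were Osbpl8 (0.973), Usp34 (0.962) and Ifi30 (0.962). For Efnb2 the values were lower, with Itga2 (0.938), an integrin chain, at the top, followed by Satb1 (0.934) and Cbr4 (0.924). For Sphk1 they were Fars2 (0.970), Slc25a5 (0.960) and Uqcrfs1 (0.952), and for Pdgfb Galnt6 (0.977), Mknk2 (0.976) and Nrd1 (0.972). All of these r were above 0.92.

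Because the osteoclast markers were lower too, each gene was also expressed relative to the mean log2 CPM of these 12 markers in the same library, a scale chosen after the values were seen and given without a test. On this scale most genes of the table rise: 54.1% of all tested genes were apart and higher in OCsEo and 55.4% in OCsEoS, against 0.285% and 0.351% apart and lower. Calcr stayed apart and lower, by 0.24 in OCsEo (-0.24) and 0.45 in OCsEoS (-0.45). The markers behind this mean were themselves spread, from -0.31 to -0.99 log2 in OCsEo and from -0.32 to -1.10 in OCsEoS. Calcr, at -0.81 and -1.08, lay inside that range. Cthrc1 was apart and lower in OCsEoS (-0.69) and overlapped in OCsEo (-0.21). Efnb2 (-0.07 and -0.02) and Spns2 (-0.02 and 0.11) overlapped the controls in both groups. Sema4d was apart and higher in OCsEo (0.35) and level with the controls in OCsEoS (-0.01). Sphk1 was apart and higher in OCsEoS (0.35), and Pdgfb overlapped in both (0.22 and 0.21). Between the stimulated groups, Sema4d (-0.36) and Cthrc1 (-0.48) were apart and lower in OCsEoS, where 1.37% of all genes were.

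**Figure D4:**
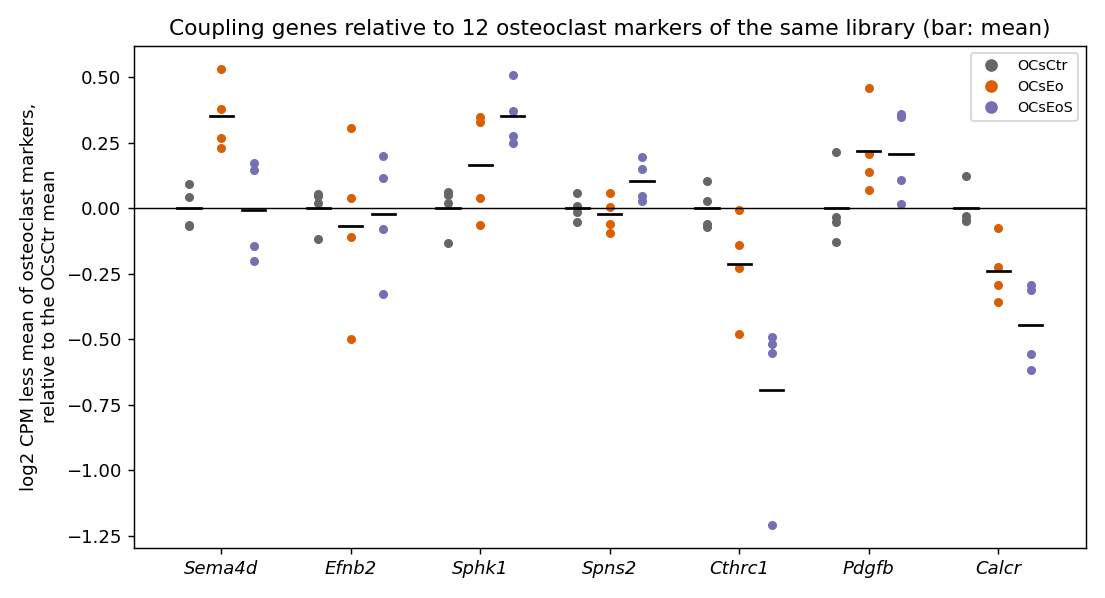
Log2 CPM of the 7 tested genes less the mean log2 CPM of 12 osteoclast markers in the same library, set to 0 at the OCsCtr mean (y axis), with 1 point per library and bars for group means. Calcr lies below the controls in both groups, by 0.24 and 0.45, Cthrc1 in OCsEoS by 0.69, while the means of Efnb2 and Spns2 stay within 0.11 of 0.

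The receiving side of these signals was read in the same cultures. Of 28 receptors and co-receptors, 16 were tested. In OCsEo 1 rose and none fell, and the same held in OCsEoS, with medians of -0.15 and -0.10 log2. The one that rose was S1pr1, an S1P receptor, from 7.65 CPM in OCsCtr to 11.9 CPM with eosinophils (0.64, adjusted p = 0.0237) and 12.01 CPM with supernatant (0.65, adjusted p = 0.0168). Both calls were lost without OCsCtr 3 (0.48 and 0.49), the first also without OCsEo 4 (0.51) and the other without OCsEoS 4 (0.56). The following receptors were named after their values were seen. Plxnb2, a plexin-B, stood at 227, 203 and 203 CPM in OCsCtr, OCsEo and OCsEoS, whereas Plxnb1, the receptor best known for Sema4d in osteoblasts, averaged 0.0433 CPM in OCsCtr and 0 in the others. Ephb4, the partner of ephrin-B2, averaged at most 0.223 CPM and failed the filter on counts. Robo4 and S1pr5 had 0 counts in every library.

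Of 31 relatives of the semaphorin, ephrin, PDGF and Slit families, 17 were tested and none was called in either comparison with OCsCtr, with medians of -0.29 and -0.23 log2. By adjusted p alone, Sema7a, also a membrane semaphorin, was at -0.40 (adjusted p = 0.00705) in OCsEo and -0.39 (adjusted p = 0.00651) in OCsEoS, and Efnb1 at -0.45 (adjusted p = 0.0243) in OCsEo. Both were named after their values were seen.

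Other signals by which osteoclasts reach osteoblasts did not move in 1 direction. Of 15, 12 were tested. In OCsEo 1 rose and 1 fell, and in OCsEoS 2 rose and 1 fell, with medians of -0.05 and 0.04 log2. Igf1, insulin-like growth factor 1, rose from 14.0 ± 2.03 CPM to 50.7 ± 9.17 CPM in OCsEo (1.86, SE 0.15, adjusted p = 1.54e-07) and to 59.4 ± 13.7 CPM in OCsEoS (2.09, SE 0.15, adjusted p = 8.20e-08). Cxcl16, a chemokine, rose in OCsEoS (0.57, adjusted p = 4.85e-04) but not without OCsCtr 2 (0.48). Lif, a cytokine of the interleukin 6 family, fell in both (-0.53, adjusted p = 0.0179, and -0.70, adjusted p = 0.00221), and in OCsEo not without OCsEo 4 (-0.48). Of 5 proteases that release or activate such signals, 4 were tested. Mmp14, a membrane metalloproteinase, fell in both groups (-0.55, adjusted p = 1.12e-04, and -0.63, adjusted p = 2.29e-05), in OCsEo not without OCsEo 3 (-0.50), and no other was called. Igf1 and Lif are counted here among the coupling signals but are made by many cells.

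**Figure D5:**
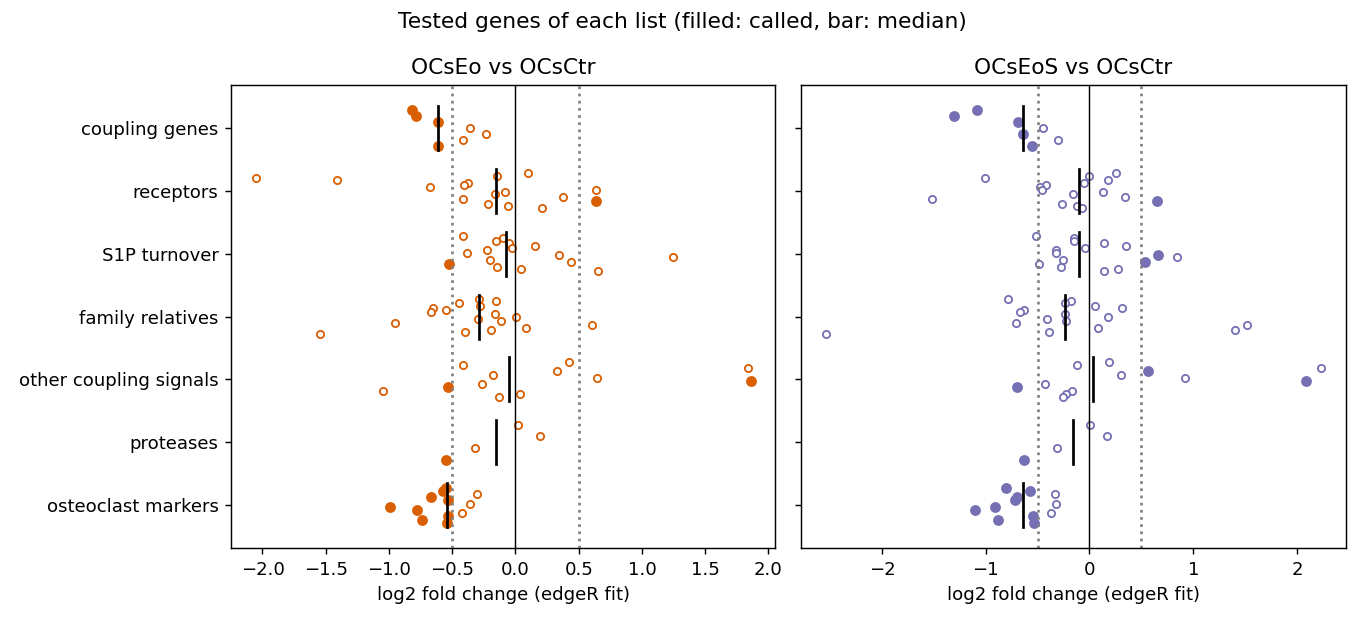
Log2 fold change (x axis) of the tested genes in the 8-gene set and in 6 other lists, for OCsEo and OCsEoS against OCsCtr, with filled points for called changes, black bars for list medians and dotted lines at 0.5 in either direction. The 7 tested genes of the set, Calcr included, and the 12 osteoclast markers lie left of 0 in both panels. Their medians in OCsEo were -0.61 and -0.54, while Igf1 lies far to the right at 1.86 and 2.09.

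The osteoclast markers with the lowest adjusted p in either comparison were Itgb3, Mmp9, Ctsk and Clcn7, each at its lowest in OCsEoS except Itgb3. Itgb3, the integrin chain of the osteoclast's attachment, was at -0.99 in OCsEo (adjusted p = 1.02e-06) and -0.91 in OCsEoS. Mmp9 was at -0.77 and -1.10, close to the values of Calcr (-0.81 and -1.08). Ctsk, the protease cathepsin K, was at -0.54 and -0.71, the first lost without OCsEo 1 (-0.45). Clcn7, a chloride transporter of the resorbing membrane, was at -0.67 and -0.70.

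Markers of cells that could be carried over were read beside these results. Of 10 eosinophil markers, 5 were tested, and 2 rose in OCsEo, Alox15 (5.17) and Siglecf (2.76). Alox15 averaged 0.300 CPM in OCsCtr and 10.98 CPM in OCsEo. In OCsEoS, Prg2 fell (-2.74). The eosinophil peroxidase gene Epx averaged at most 0.203 CPM, and the summed level of the 10 was 57.1 to 73.7 CPM in OCsCtr, 60.1 to 82.2 in OCsEo and 49.3 to 55.5 in OCsEoS. Most of that sum was Ccr3, a chemokine receptor named after its values were seen, at 59.6, 48.7 and 50.7 CPM (-0.29 in OCsEo, adjusted p = 0.0164). Of 10 neutrophil markers, all tested, Elane (0.99) and Camp (0.51) rose in OCsEo, Camp not without OCsCtr 3, OCsEo 2 or OCsEo 3 (0.39, 0.48 and 0.46), and none was called in OCsEoS. All 10 were positive in OCsEo, with a median of 0.42, and 8 of 10 were negative in OCsEoS, with a median of -0.14. In OCsEoS against OCsEo all 10 were negative, with a median of -0.60. The summed level of the 10 was 328 to 471 CPM in OCsCtr, 476 to 647 in OCsEo and 371 to 444 in OCsEoS. Of 8 T cell markers 4 were tested, and of 8 B cell markers all 8, with no call in any comparison. The summed levels were 2.03 to 4.97 CPM for T cells and 23.0 to 60.7 CPM for B cells over all libraries. The part of these cells in the changes of the coupling genes was not tested.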

How the data were processed

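RNA of 12 osteoclast cultures was sequenced from libraries made with the NEBNext Ultra kit. The authors aligned reads with HISAT2 2.0.5 to the mouse genome GRCm38 (mm10) and counted them per gene with featureCounts, and the labels name fastp as well. The deposited values are raw counts per gene. The annotation release and the strand setting are not given in the sources used here. Groups were taken from the labels. Columns hold 1 library each, and no other per-sample column was present (0). Genes passed filterByExpr of edgeR 4.0.16 (minimum count 10), which kept 13681 of 47643 genes, and 27440 had 0 counts in every library. Counts were scaled by TMM, and all 12 libraries were fitted in 1 quasi-likelihood model in R 4.3.3 with 3 contrasts. P-values were adjusted by Benjamini-Hochberg over all tested genes. Called genes had a log2 fold change beyond 0.5 in either direction with adjusted p below 0.05, as in the study, which ran DESeq2. CPM used TMM-scaled totals, and correlations used log2 CPM with a prior count of 2. Intervals are 95% from the SE and 9 residual degrees of freedom. The edgeR test adds degrees of freedom borrowed across genes, so these intervals are wider than its p-values imply. An interval can therefore span 0 where the unadjusted p is under 0.05, as for Calcr between the stimulated groups. The fit was run on simulated counts, with planted changes well beyond the fold threshold and no differences between replicates beyond random scatter. That run did not examine calls near the threshold. Replicates of 1 group differed by more than sampling noise in each of 18 pairs (chi-square per degree of freedom 9.79 to 34.4).

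The members and the 13 other lists were chosen with earlier results of these data known. Named list genes are at most 4 called genes per list by lowest adjusted p, any called between OCsEoS and OCsEo, and the 3 genes most like each member, of which 1 is not reported here. Receptors and relatives outside this rule are marked as chosen after their values were seen. Alternatives were DESeq2 1.42.0, other scalings, other filters, other thresholds, fits of 2 groups, a replicate block and leaving out each library. Promoter windows were matched by gene symbol, and motifs were searched on both strands. Exon lengths and overlaps were read from GENCODE vM21.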

Additional observations from a re-analysis of the deposited data

Results flagged for a closer look

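With groups of 4 libraries, 23 group and gene combinations of the 8 genes were examined for a library far from the others by Dixon's criterion, and 3 stood out. Chance flags about 1 in 20 where values vary continuously, which those of Slit3 do not. Spns2 in OCsEo 1 was at 155 CPM, against 168 to 169 CPM in the other OCsEo libraries (gap over range 0.897). Slit3 stood out in OCsCtr 1 (0.0347 CPM) and OCsEo 2 (0.0266 CPM), each of them a single count beside libraries at 0. The criterion always flags such a pattern.

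The direct comparison of OCsEoS with OCsEo differed for 5 genes of the eosinophil and neutrophil marker lists, each tested by edgeR: Alox15 (-4.03 log2), Prg2 (-2.73), Mpo (-0.79), Ltf (-0.84) and Ngp (-0.62). Alox15 kept its call under every alternative run. Prg2 lost it under DESeq2 on all 12 libraries (adjusted p = 0.0831) and on 2 groups (adjusted p = 0.282), under edgeR on 2 groups (adjusted p = 0.0600) and without OCsEo 2, OCsEo 3, OCsEoS 1 or OCsEoS 3. Mpo lost it without any 1 of 9 libraries (highest adjusted p = 0.147, without OCsEoS 4). Ltf lost it under edgeR on 2 groups (adjusted p = 0.0580) and without any 1 of 6 libraries (highest adjusted p = 0.149, without OCsEoS 3), and Ngp without OCsEo 2 (adjusted p = 0.0529) or OCsEoS 3 (adjusted p = 0.0647). No member of the 8-gene set was called in that comparison, though 1524 of all tested genes had an unadjusted p under 0.05 there.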

How the results depend on the processing

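Each of the 7 tested genes was recomputed under 20 alternatives in each comparison, the other thresholds not among them. Of 420 values, 410 kept their direction and their side of the threshold, 5 lost a call, 3 gained one and 2 changed sign. Some alternatives could move a fold change little, such as leaving out a library of the group not compared. The sign changes were between the stimulated groups: over the left-out libraries Efnb2 ran from -0.25 to 0.0783 (reached without OCsEo 4) and Sphk1 from -0.0197 (reached without OCsEo 1) to 0.19. Relative to the osteoclast markers, Spns2 in OCsEoS (0.11), Sema4d in OCsEo (0.35), Sphk1 in both groups (0.16 and 0.35) and Pdgfb in both (0.22 and 0.21) turned positive, as did Efnb2 between the stimulated groups (0.04), without a test. Members called ranged from 3 to 5 in OCsEo, 4 to 5 in OCsEoS and 0 to 1 between the stimulated groups when single libraries were left out. With an absolute log2 fold change over 1, 0 members were called in OCsEo and 2 in OCsEoS, and with no filter on low counts 1 was called between the stimulated groups. Over all genes, 804, 1058 and 52 were called in OCsEo, OCsEoS and between the stimulated groups. Leaving out single libraries gave 664 to 980, 849 to 1345 and 17 to 62. The adjusted p alone gave 2382, 3151 and 81, and a log2 fold change over 1 gave 136, 160 and 21, as these thresholds are looser and stricter by construction. Between the stimulated groups, DESeq2 on all 12 libraries gave 94 and no filter 100; the cause was not tested. Same-numbered libraries of different groups had correlated deviations of r from -0.04 to 0.09 over 12 pairs, 0 of them over 0.1, and in 8 of the 12 pairs the highest r was with the same number, a hint from the data and not from the design. With a replicate block, 854, 1108 and 67 genes and 4, 5 and 0 members were called, so the block changed no member's call. Of 635 values of the named list genes, 594 kept their call and 41 lost it. Levels under 3 counts per library were not detectable at this depth.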
